A study of Mus musculus with 6 samples.

Results

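The genes described here carry a Gpr symbol with a number, the name given to many orphan G protein-coupled receptors, or an Adgr symbol, the name of the adhesion G protein-coupled receptors. They were taken as every gene whose array annotation gives a single symbol of that form, with Gpr34 left out. The rule found 82 genes on 133 probe sets, out of 18193 genes on 34945 probe sets with 1 symbol. Of the 82 genes, 22 were adhesion receptors and 60 carried a Gpr symbol. A further 5 probe sets whose several symbols include a Gpr or Adgr gene were left out.

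The study compared resident macrophages of the mouse peritoneal cavity between 2 genotypes. Gata6-KO mice carried a conditional floxed deletion of the transcription factor gene Gata6, and Gata6-WT mice were wild type; the mice were 7 weeks old and are described as sex-matched. Cells of 2 to 3 mice were pooled for each sample and sorted as CD11b-high and MHCII-low or negative, and each genotype had 3 pools, each on 1 array. The labels name no Cre line, no cell type in which it acts and no deleted exon, and they list no other allele and no agent for either genotype. The p-values measure the spread between such pools of mice.

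G protein-coupled receptors span the membrane several times and, when a ligand binds, activate a G protein made of an alpha subunit and a beta-gamma pair. Alpha subunits then raise or lower cyclic AMP or release calcium, while receptor kinases and arrestins end the signal. Adhesion receptors add a long extracellular part, which is often cut by the receptor itself and binds other cells or matrix. The best known of them in macrophages is F4/80, the product of Adgre1, whose antibody is widely used to recognise tissue macrophages of the mouse. Many Gpr genes were named before a ligand was known, and some encode multi-span proteins of internal membranes that are not known to couple to G proteins.

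Values are deposited linear probe set signals, scaled to a common trimmed mean on each array. Differences are Gata6-KO minus Gata6-WT on the log2(signal + 16) scale, with the standard error (SE) of the limma fit, and adjusted p-values are limma's with Benjamini-Hochberg adjustment over all 27022 probe sets tested. Each gene is represented by its probe set with the highest mean, and the threshold is an adjusted p of 0.05. Signals of different genes come from different probes and are not compared with each other. Median signals lay between 79.5 and 88.3 per array, and arrays correlated at r = 0.964 to 0.972 within a genotype and 0.930 to 0.951 between them. In the targeted gene itself, 2 of the 3 Gata6 probe sets were lower in Gata6-KO (log2 -1.15 and -0.88, adjusted p = 0.0043 and 0.011) and the other was not (log2 -0.01, adjusted p = 0.98). Where these probe sets lie relative to the deletion is not known here. Xist, expressed in female cells, had signals of 102 and 113 on the arrays numbered 1 and 11158 to 13749 on the other 4, so differences are also given within replicate 1 (1 array against 1, no test) and within replicates 2 and 3 (2 against 2). With 3 arrays against 3 the smallest two-sided p of an exact permutation test is 0.1, so that test was not used for single genes. In such bulk samples, fewer cells of a type and less RNA per cell cannot be told apart.

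All 8 macrophage markers examined lay above background in both genotypes. Among them Cd163 and Mertk were higher in Gata6-KO (log2 5.46 and 0.43), and Fcgr1 and Cd68 were lower (-2.80 and -0.41). For resident peritoneal macrophages, 6 of 7 markers were lower in Gata6-KO. Of 5 monocyte markers, 3 were measured (Ccr2, F13a1 and Plac8) and all 3 were higher in Gata6-KO. Their summed signal was 51282 to 60970 in Gata6-KO and 6570 to 10948.5 in Gata6-WT arrays. Most of this sum is F13a1, at 48539 to 56314 in Gata6-KO and 6335 to 10657 in Gata6-WT. Ccr2 had 9632, 2401 and 1740 in the Gata6-KO replicates and 105 to 186 in Gata6-WT, and Plac8 had 199 to 342 and 105 to 167. The shift in these markers moves with every difference reported below, and its part in them was not tested. Summed signals of the T and NK cell markers were 191 to 233 in Gata6-KO against 143 to 247 in Gata6-WT, those of the mesothelial markers 64.6 to 165 against 117 to 169, and 0 of the 10 measured genes of these lists lay above background. Neutrophil markers summed to 533 to 834 against 955 to 1623 and dendritic cell markers to 344 to 679 against 583 to 1290.4. In each list 1 gene was called, S100a8 (log2 -1.20) and Cd209a (-2.17), both lower in Gata6-KO. Of the other genes measured in these lists, Elane had -0.10 and the rest had differences above 0, none of them called. Among them were Cxcr2 (0.86, not tested), Zbtb46 (0.24) and Siglech (0.95), so the sums do not describe each list as a whole.

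Receptors of smell, taste and pheromones, which macrophages are not known to need, served to set a background. On 87 probe sets of 78 such genes the 95th percentile of the mean level was log2 6.78, a signal of 93.7. By this bound 28 of the 82 members were above background, namely 9 adhesion receptors and 19 Gpr genes. Of all 18193 genes, 10210 were above it, a larger share. Gpr162, at a mean level of 6.79, was the member just above the bound, and Gpr39, at 6.71, the one just below it. Adgrl1 and Gpr162 exceeded the bound in Gata6-KO and not in Gata6-WT, and Gpr39 exceeded it in Gata6-WT (log2 6.83) and not in Gata6-KO (6.58). At the other tested probe set of Adgrl1 both genotypes lay below it. The plot of signals per array shows the 28 members with their values on all 6 arrays.

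**Figure D1:**
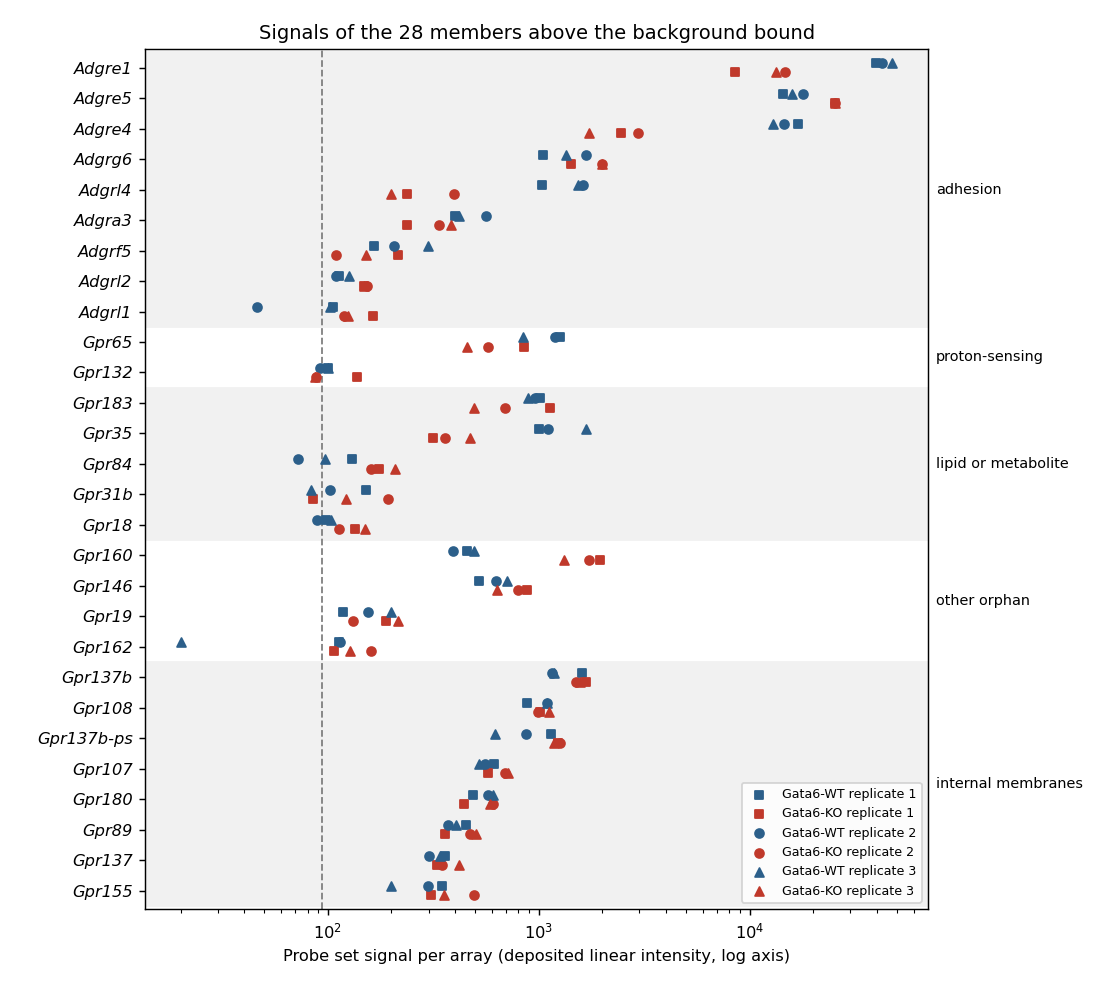
Signal of each of the 28 members above background on each array (horizontal log axis, deposited linear intensity), with Gata6-WT in blue, Gata6-KO in red, 1 symbol shape per replicate number and the background bound of 93.7 as a dashed line. Adgre1, Adgre4, Adgrl4 and Gpr35 have all 3 Gata6-KO arrays below all 3 Gata6-WT arrays, and Adgre5 and Gpr160 have them above.

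Of the 82 members, 39 had a probe set above the filter on low signals and were tested. Adgre5 and Gpr160 were higher in Gata6-KO, 2 of 39 (5.13%), where 5.61% of all 12511 genes tested were higher. Adgre1, Adgre4, Adgrl4 and Gpr35 were lower, 4 of 39 (10.3%), where 7.46% of all genes tested were lower. The median difference of the 39 was log2 0.17, against -0.04 for all genes tested. Groups of arrays did not overlap for 13 of the 39 (33.3%), against 34.4% of all genes tested. All 6 called members were above background in both genotypes. Of genes above background 6.61% were higher and 8.84% lower, and the groups of 12 of the 28 members above it did not overlap (42.9%), against 38.4% of such genes. In either direction, 6 of the 28 members above background were called (21.4%), against 15.5% of genes above it. By family, 4 of 11 tested adhesion receptors were called (36.4%), against 13.1% of all genes tested, a difference for which no test was made.

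**Figure D2:**
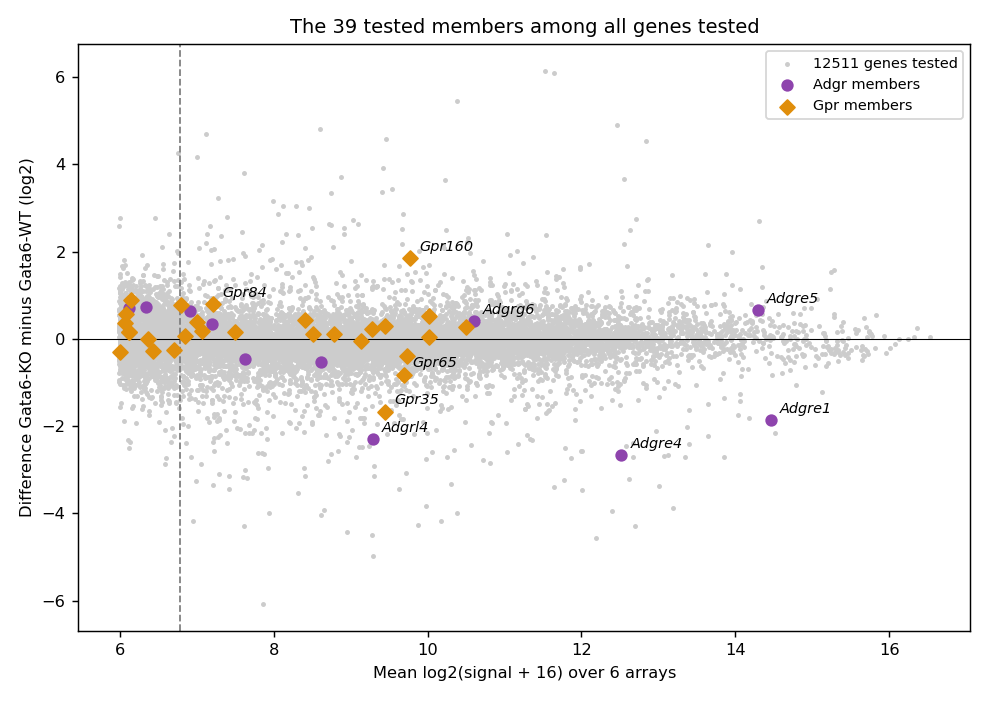
Mean level over the 6 arrays (horizontal, log2(signal + 16)) against the difference Gata6-KO minus Gata6-WT (vertical, log2) for the 12511 genes tested in grey, Adgr members as purple circles and Gpr members as orange diamonds; the dashed line is the background bound of log2 6.78. Most members lie near 0, and Adgre4, Adgrl4, Adgre1 and Gpr35 lie from -2.66 to -1.67.

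The sequence before the transcription start was read for the called members from RefSeq (GRCm38.p6), whose table held starts for 63 of the 82 members and not for Adgre1 or Adgre5. The 250 bases before each start were searched on both strands for words bound by GATA factors and for GAGGAA, which is a core of sites for the myeloid factor PU.1. The GATA words were AGATAA, its variant AGATAG, the word TGATAA, and its variant TGATAG. No GATA word can also be a match to the PU.1 core. A GATA motif was found in 26.5% of all 32851 promoters and in 13 of the 82 promoters of members, and none was found before the starts of Adgre4, Adgrl4, Gpr35 or Gpr160. GAGGAA was found in 23.3% of all promoters, in 16 of the 82 promoters of members, before Adgrl4, and before 1 of the 2 starts of Gpr35. These letters are a description of the window, and nothing was measured on it here. The promoters of the 3 lowered members in the table are shown, with GAGGAA in capitals; each ends at the base before the start.
Adgre4 (chr17:55749734-55749983, plus strand): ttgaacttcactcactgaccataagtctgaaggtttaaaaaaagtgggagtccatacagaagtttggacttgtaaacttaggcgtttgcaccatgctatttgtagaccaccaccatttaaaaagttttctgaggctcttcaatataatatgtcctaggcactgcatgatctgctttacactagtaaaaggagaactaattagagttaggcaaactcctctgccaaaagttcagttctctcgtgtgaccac
Adgrl4 (chr3:151437632-151437881, plus strand): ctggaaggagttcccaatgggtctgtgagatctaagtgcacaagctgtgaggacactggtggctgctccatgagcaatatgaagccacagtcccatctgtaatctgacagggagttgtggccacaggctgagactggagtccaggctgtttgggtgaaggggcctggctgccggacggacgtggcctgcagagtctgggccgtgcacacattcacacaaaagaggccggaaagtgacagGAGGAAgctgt
Gpr35 (chr1:92978653-92978902, plus strand): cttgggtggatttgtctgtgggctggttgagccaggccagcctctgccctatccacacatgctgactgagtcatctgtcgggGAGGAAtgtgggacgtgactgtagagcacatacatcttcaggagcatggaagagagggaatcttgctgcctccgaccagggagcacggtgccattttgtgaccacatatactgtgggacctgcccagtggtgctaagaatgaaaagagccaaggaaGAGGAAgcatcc
In Adgrl4 the match lies 11 to 6 bases before the start, and in Gpr35 the matches lie 168 to 163 and 12 to 7 bases before this start.

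The Adgre subfamily, whose receptors carry epidermal growth factor-like repeats and are found mainly on leukocytes, changed in both directions. Adgre1, which encodes F4/80, had signals of 39618, 42302 and 47450 in Gata6-WT replicates 1, 2 and 3 and of 8528, 14617 and 13301 in Gata6-KO replicates 1, 2 and 3. Every Gata6-KO array lay below every Gata6-WT array, at 19.8%, 33.9% and 30.8% of the wild type mean. The difference was log2 -1.86 ± 0.19 SE (3.63-fold lower, adjusted p = 0.00027). It was -2.21 within replicate 1 and -1.68 within replicates 2 and 3 (adjusted p = 0.00038). All 3 Gata6-KO signals remained far above the background bound.

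Adgre4, the mouse F4/80-like receptor gene FIRE, had signals of 16974, 14560 and 12905 in the Gata6-WT replicates and 2443, 2946 and 1724 in the Gata6-KO replicates. The groups were well apart, and the difference of log2 -2.66 ± 0.19 SE (6.32-fold lower, adjusted p = 4.1e-05) was the largest among the tested members at their probe sets with the highest mean; with the probe sets of each gene averaged it was -2.55, against -2.78 for Adgrl4. A second probe set gave 3532 ± 1148 in Gata6-WT and 625 ± 106 in Gata6-KO (SD, n = 3; log2 -2.43 ± 0.23, adjusted p = 0.00019). The difference was -2.79 within replicate 1 and -2.60 within replicates 2 and 3, so both kinds of array gave nearly the same size. Eosinophils also carry F4/80, and none of the 5 eosinophil markers lay above background in either genotype. Their summed signal was 125 to 201 in Gata6-KO and 85.3 to 196 in Gata6-WT arrays. Among them Siglecf had -1.15, with every Gata6-KO array below every Gata6-WT array, and the others had differences above 0. The part of eosinophils in the Adgre1 difference was not tested.

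Adgre5, which encodes CD97, a leukocyte receptor that binds CD55, moved the other way. Its signals were 14301, 17803 and 15825 in the Gata6-WT replicates and 25306, 25238 and 25252 in the Gata6-KO replicates. The Gata6-KO arrays were close together and all above the wild type arrays, with a difference of log2 0.67 ± 0.11 SE (1.59-fold higher, adjusted p = 0.0042). It was 0.82 within replicate 1 and 0.59 within replicates 2 and 3 (adjusted p = 0.027). The change is small, and limma's treat test against a change of 1.5-fold did not pass it (adjusted p = 1.00). Cd55, the gene of its ligand, had signals of 80.4 in Gata6-KO and 71.3 in Gata6-WT, below the background bound in both genotypes.

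Adgrl4, also called Eltd1, is an adhesion receptor best known from endothelial cells. It had signals of 1031, 1614 and 1529 in the Gata6-WT replicates and 237, 398 and 199 in the Gata6-KO replicates, with no overlap. The difference was log2 -2.29 ± 0.26 SE (4.89-fold lower, adjusted p = 0.00055). A second probe set had 1439 ± 265 in Gata6-WT and 144 ± 72.3 in Gata6-KO (SD, n = 3; log2 -3.27 ± 0.30, adjusted p = 0.00016), so both fell and the size depends on the probe set. Within replicate 1 the difference was -2.05 and within replicates 2 and 3 it was -2.41 at the probe set with the higher mean. Of 5 endothelial markers 1, Kdr, lay above background in each genotype (158 in Gata6-KO and 163 in Gata6-WT), while Pecam1 and Cdh5 lay below it in both. The summed endothelial signal was 253 to 391 in Gata6-KO and 234 to 349 in Gata6-WT arrays, and its part in the Adgrl4 difference was not tested.

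Of the other 5 adhesion receptors above background, none passed the threshold. Adgrg6, a receptor known from Schwann cell myelination, had 1042, 1680.1 and 1339.7 in the Gata6-WT replicates and 1416, 1987 and 1990.0 in the Gata6-KO replicates (log2 0.41 ± 0.20 SE, 95% interval -0.02 to 0.85, adjusted p = 0.23), and its second probe set differed by 0.57 (adjusted p = 0.20). Adgra3 had 398, 563 and 418 in the Gata6-WT replicates and 237, 335 and 382 in the Gata6-KO replicates (log2 -0.52 ± 0.21 SE, adjusted p = 0.17), with no overlap at this probe set and 0.08 at its other tested one. The lung endothelial receptor gene Adgrf5 had a difference of -0.46, with 0.35 within replicate 1 and -0.87 within replicates 2 and 3. Adgrl1 and Adgrl2, latrophilins that bind teneurins and FLRT proteins, had differences of 0.65 and 0.33 at signals near the bound. The other tested probe set of Adgrl1 went the other way (-0.78, adjusted p = 0.37), and that of Adgrl2 had 0.33. Adgrg1, Adgrg3 and Adgrv1 were among the 13 adhesion receptors at or below background.

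Of the 3 members known to respond to protons, Gpr65 and Gpr132 were above background and Gpr4 was not. Gpr65, which raises cyclic AMP at acid pH, had 1255, 1195 and 843 in the Gata6-WT replicates and 846, 575 and 457 in the Gata6-KO replicates. The highest Gata6-KO array and the lowest Gata6-WT array were nearly equal, and the difference of log2 -0.82 ± 0.23 SE (95% interval -1.34 to -0.30) missed the threshold at an adjusted p of 0.053. It lay below the threshold in 8 of 20 alternative settings. Among them were the fit without Gata6-KO replicate 1 (adjusted p = 0.019) and the fit with a block on the replicate number (adjusted p = 0.0086). Gpr132 had 97.3 ± 4.93 in Gata6-WT and 104 ± 29.1 in Gata6-KO (SD, n = 3; log2 0.06, 95% interval -0.54 to 0.66).

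Among receptors with lipid or small-metabolite ligands, Gpr35 was lower in Gata6-KO. GPR35 is expressed in gut and myeloid cells and has been proposed to respond to kynurenic acid and other metabolites. It had signals of 998, 1106 and 1678 in the Gata6-WT replicates and 316, 358 and 470 in the Gata6-KO replicates. The groups did not overlap, with a difference of log2 -1.67 ± 0.22 SE (3.17-fold lower, adjusted p = 0.0013), and it was -1.61 within replicate 1 and -1.69 within replicates 2 and 3. Mast cells also express Gpr35; the summed signal of 7 mast cell markers was 332 to 512 in Gata6-KO and 525 to 663 in Gata6-WT arrays, with Cpa3 at 159 in Gata6-KO and 280.0 in Gata6-WT (adjusted p = 0.051), and its part in the difference was not tested.

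Gpr183, the receptor of dihydroxylated oxysterols that guides B cells and other leukocytes, gave different answers at its probe sets. At the probe set with the higher mean it had 1015, 960.1 and 889.6 in the Gata6-WT replicates and 1126, 690.0 and 493 in the Gata6-KO replicates (log2 -0.38 ± 0.25 SE, adjusted p = 0.39). Gata6-KO replicate 1 lay above all wild type arrays and the other Gata6-KO arrays below them. At the other probe set the level was 524 ± 64.2 in Gata6-WT and 301 ± 100 in Gata6-KO (SD, n = 3; log2 -0.81 ± 0.22, adjusted p = 0.048). Of the 7 B cell markers measured, 2 lay above background in Gata6-KO and 0 in Gata6-WT, with summed signals of 465 to 506 and 340 to 457. The 2 were Pax5 and Blk (differences of 0.33 and 0.95, not called). Cd79a and Cd79b, not tested, went the other way (-0.67 and -1.09), and Ms4a1, Ebf1 and Cd22 had differences above 0. The sums thus do not describe the list as a whole, and its part in the Gpr183 values was not tested. Of the 4 enzymes that make or convert its ligands, Cyp7b1, which adds the second hydroxyl group, fell from 371 ± 28.4 to 116 ± 36.2 (log2 -1.59 ± 0.24, adjusted p = 0.0030; 0.054 in the treat test against 1.5-fold). Ch25h, Cyp27a1 and Hsd3b7 did not pass, with differences of 0.51, -0.07 and -0.09. The level of Ch25h was under the background bound in both genotypes (log2 6.59 in Gata6-KO and 6.08 in Gata6-WT).

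Gpr84, a receptor of medium-chain fatty acids known to rise in inflamed macrophages, had 130, 71.8 and 96.9 in the Gata6-WT replicates and 174, 160 and 207 in the Gata6-KO replicates. All Gata6-KO arrays were above the wild type arrays, but the difference of log2 0.79 ± 0.26 SE (95% interval 0.21 to 1.37) did not pass (adjusted p = 0.086), and the wild type signal of 71.8 is under the background bound. Gpr18 and Gpr31b had differences of 0.39 and 0.18 at signals near the bound, and the lysophosphatidylserine receptor gene Gpr174 was below it. Of the 6 receptors with a peptide or chemokine-type ligand, 0 were above background.

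Gpr160, an orphan proposed as a receptor of the neuropeptide CART, had the largest rise of the tested members. Its signals were 458, 390 and 494 in the Gata6-WT replicates and 1942, 1728 and 1320 in the Gata6-KO replicates. The groups were well apart. The difference was log2 1.85 ± 0.17 SE (3.60-fold higher, adjusted p = 0.00016), with 2.05 within replicate 1 and 1.75 within replicates 2 and 3 (adjusted p = 0.0037). Gpr146, known from work on liver lipoprotein secretion, had 618 ± 94.8 in Gata6-WT and 769 ± 125 in Gata6-KO (SD, n = 3; log2 0.31, adjusted p = 0.31). Its 4 tested probe sets ran from 0.31 to 0.62 and none passed, the nearest at an adjusted p of 0.063. Gpr19 and Gpr162 had differences of 0.17 and 0.78, and the wild type signals of Gpr162 were 112, 114 and 20.1.

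The plot of differences with their intervals shows the 6 called members and the 22 others above background. The difference of Adgre5, at 0.67, was smaller than those of Gpr84 and Gpr65, which did not pass and had wider intervals.

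**Figure D3:**
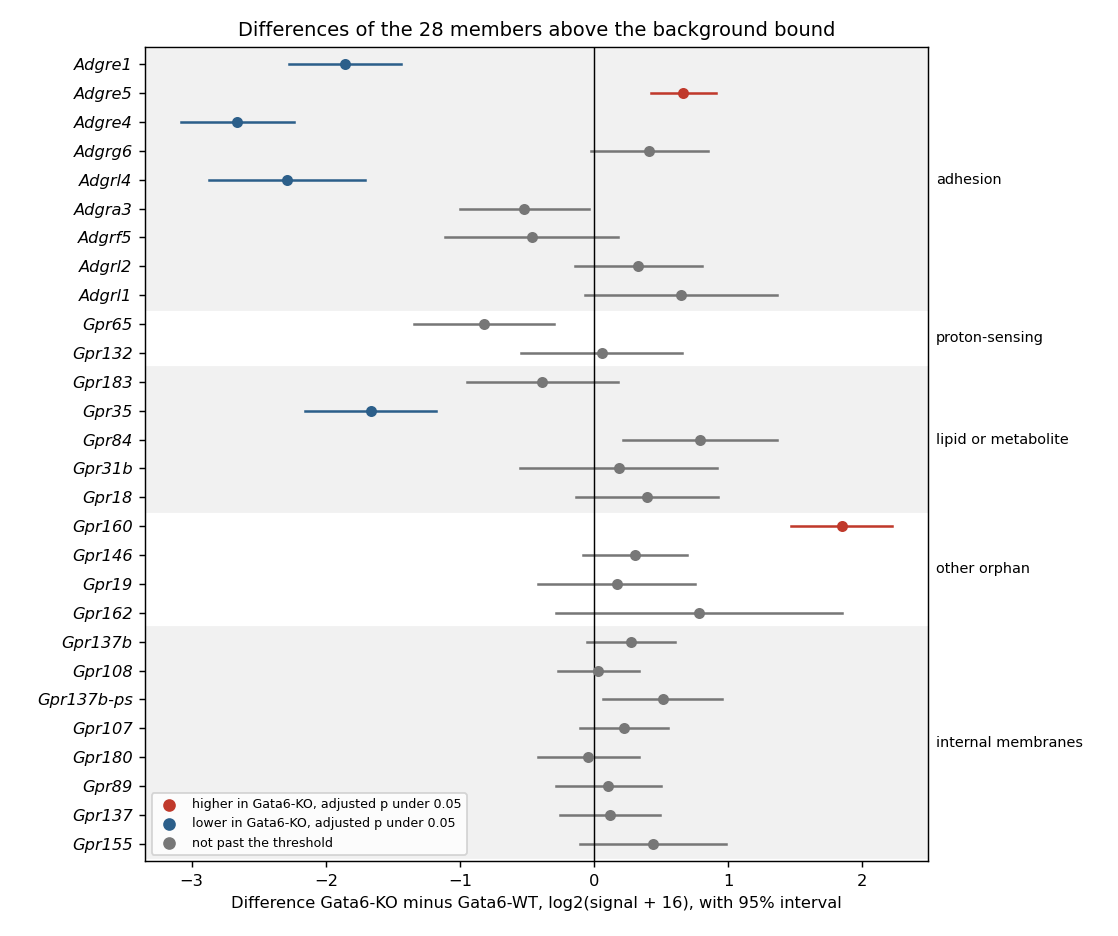
Difference Gata6-KO minus Gata6-WT (horizontal, log2(signal + 16)) with its 95% interval from the limma fit for the 28 members above background, grouped by role; red members were higher, blue members lower and grey members not past the adjusted p threshold of 0.05. The 4 blue members are Adgre1, Adgre4, Adgrl4 and Gpr35, the 2 red ones Adgre5 and Gpr160, and the 8 members of the internal-membrane group are all grey.

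Genes with a Gpr symbol that encode proteins of internal membranes form the last group. Counted with them is Gpr137b-ps, whose symbol marks it as a pseudogene copy of Gpr137b. Of the 10 members of this group 8 were above background and 0 passed the limma threshold (1 at an unadjusted p under 0.05). Of genes above background 15.5% were called. The largest difference was that of Gpr137b-ps at 0.51 (95% interval 0.07 to 0.96). Gpr107 and Gpr108, Golgi proteins used by toxins and viruses to enter cells, had differences of 0.23 and 0.03. The signals of Gpr108 were 875, 1092 and 1089 in the Gata6-WT replicates and 1013, 988 and 1112 in the Gata6-KO replicates, and the groups overlapped (log2 0.03 ± 0.13 SE, 95% interval -0.27 to 0.33, adjusted p = 0.92). Gpr89, a Golgi pH regulator, had 0.11, and Gpr180 had -0.04. Gpr137, Gpr137b and the cholesterol-sensing Gpr155 are lysosomal proteins and had 0.12, 0.28 and 0.44. Gpr137b had 1603, 1158 and 1184 in the Gata6-WT replicates and 1679, 1499 and 1564 in the Gata6-KO replicates (log2 0.28 ± 0.15 SE, adjusted p = 0.28), and its 2 other tested probe sets differed by 0.33 and 0.18 and did not pass. Gpr137b-ps had 1142, 871 and 619 in Gata6-WT and 1229, 1261 and 1177 in Gata6-KO (log2 0.51 ± 0.20 SE, adjusted p = 0.14), with no overlap. Gpr137b and Gpr137b-ps are near-identical copies, and their signals may come from either, although they are counted as separate members here. The fit without Gata6-WT replicate 1 took Gpr137b-ps past the threshold (log2 0.72, adjusted p = 0.035), that array being the one with the highest wild type signal.

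The remaining 54 members lay at or below the background bound, with signals between 0.770 and 117 and a median of 30.1. Of these, 11 passed the filter on low signals and 0 passed the limma threshold, with 0 at an unadjusted p under 0.05. Of all genes tested 13.1% were called, and of those above background 15.5%, so calls are rarer at low signal. The 0 of 11 is therefore not read as a result about these members. They include the constitutively active receptor genes Gpr3, Gpr6 and Gpr12, the zinc receptor gene Gpr39 and most of the brain-type orphans. Without the filter on low signals Gpr149 passed (adjusted p = 0.014), at 51.6, 31.5 and 42.8 in Gata6-KO and 2.01, 1.34 and 0.770 in Gata6-WT, all of them under the bound.

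Genes that act with the receptors changed about as often as other genes. Of 57 tested genes for G proteins, receptor kinases, arrestins, adenylyl cyclases, phosphodiesterases and cyclic AMP effectors, 4 were higher and 5 lower (15.8%), where 13.1% of all genes tested were called. The median difference of the 57 was log2 0.03. The calls are shown in the plot of genes that act with or downstream of the receptors.

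**Figure D4:**
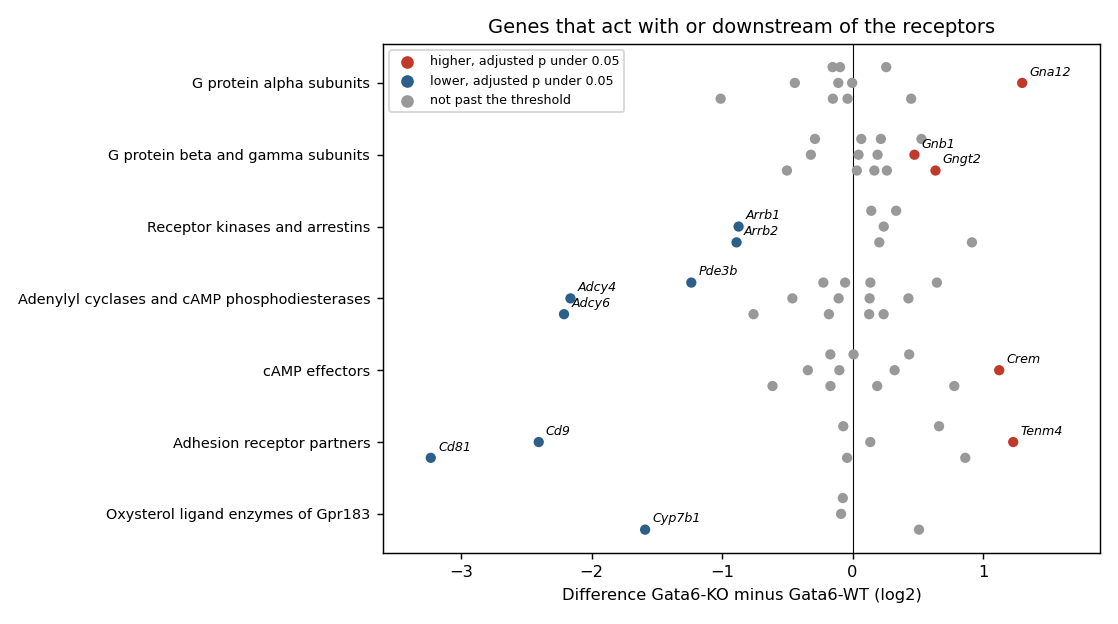
Difference Gata6-KO minus Gata6-WT (horizontal, log2) of each tested gene in 7 lists (rows), with genes past the adjusted p threshold named and coloured red (higher) or blue (lower) and others in grey; the small vertical offsets only separate points. Arrb1 and Arrb2 lie together at -0.87 and -0.89, and Adcy4 and Adcy6 at -2.16 and -2.21.

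Among 11 tested alpha subunits Gna12 was the 1 that rose, from 550 ± 38.6 to 1381 ± 165 (SD, n = 3; log2 1.30 ± 0.14, adjusted p = 0.00036). A second probe set rose as well (1.38, adjusted p = 0.034), while the mean of its 5 probe sets, of which 2 were under the filter, did not pass (0.67, adjusted p = 0.11). The alpha subunit genes Gnai2, Gnai3, Gnas and Gna13 had differences between -0.15 and -0.00, each with overlapping groups. Gna15 and Gnaq had 0.45 and 0.26, with every Gata6-KO array above every Gata6-WT array, and did not pass (adjusted p = 0.11 and 0.14). Gnal had -1.01 with every Gata6-KO array below (adjusted p = 0.19), at levels under the background bound in both genotypes. Of 13 tested beta and gamma subunits 2 rose, where 5.61% of all genes tested were higher. Gngt2 went from 2809 ± 173 to 4380 ± 385 (log2 0.64 ± 0.11, adjusted p = 0.0060; 0.052 without the mean-variance trend). Gnb1 rose at 1 probe set (log2 0.47 ± 0.09, adjusted p = 0.011) but differed by -0.13 at its other tested one (adjusted p = 0.57) and by 0.14 in the mean of its probe sets.

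The beta-arrestin genes Arrb1 and Arrb2, whose products bind activated receptors and end G protein coupling, both fell. Arrb1 had 1878, 2291 and 2423 in the Gata6-WT replicates and 1209, 1329 and 1036 in the Gata6-KO replicates (log2 -0.87 ± 0.14 SE, adjusted p = 0.0044). Arrb2 had 7963, 7118 and 9843 in Gata6-WT and 4022, 4850 and 4481 in Gata6-KO (log2 -0.89 ± 0.14 SE, adjusted p = 0.0033), and both of its probe sets fell. Neither group overlapped, and neither gene passed the treat test against 1.5-fold (adjusted p = 0.74 and 0.58). The receptor kinase genes Grk5 and Grk6 had differences of 0.33 and 0.14 and did not pass.

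In the list of adenylyl cyclases and cyclic AMP phosphodiesterases 3 of 15 tested genes fell and 0 rose. Of all genes tested, 7.46% were lower and 5.61% higher. Pde3b, a phosphodiesterase that degrades cyclic AMP, fell from 5545 ± 1095 to 2317 ± 115 (SD, n = 3; log2 -1.24 ± 0.15, adjusted p = 0.00070). The cyclase genes Adcy6 and Adcy4 fell from 327 ± 48.8 to 69.4 ± 46.8 and from 417 ± 141 to 94.9 ± 68.6 (log2 -2.21 and -2.16, adjusted p = 0.014 and 0.021). The mean Gata6-KO levels of both (log2 6.20 and 6.55) are under the background bound, so the sizes are uncertain: pseudocounts of 1 and 64 gave -2.60 and -1.61 for Adcy6 and -2.44 and -1.66 for Adcy4. Both were lowest in Gata6-KO replicate 1, at 15.4 and 23.7, and without that array the differences were -1.60 and -1.54 (adjusted p = 0.0039 and 0.019). Both lost the call without the mean-variance trend (adjusted p = 0.057 and 0.077), as did Adcy4 without Gata6-WT replicate 2 (0.061) or 3 (0.073). The cyclase gene Adcy7 had 6346 in Gata6-WT and 6931 in Gata6-KO (log2 0.13, adjusted p = 0.53). Of 11 tested cyclic AMP effectors Crem, a transcriptional regulator induced by cyclic AMP, rose from 207 ± 39.5 to 466 ± 48.6 at 1 of its 2 tested probe sets (log2 1.12 ± 0.19, adjusted p = 0.0051), and the mean of its probe sets did not pass (0.29, adjusted p = 0.42).

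Of 8 tested partners of adhesion receptors 2 were lower and 1 higher, where 7.46% of all genes tested were lower and 5.61% higher. The tetraspanin genes Cd81 and Cd9, whose products associate with the adhesion receptor GPR56, fell. Cd81 had 10211, 11522 and 10470 in Gata6-WT and 624, 2000 and 1139 in Gata6-KO (log2 -3.23 ± 0.33 SE, adjusted p = 0.00029), and Cd9 fell by 2.41 on the log2 scale (adjusted p = 0.00012). The gene of GPR56 itself, Adgrg1, had 34.4 in Gata6-WT and 23.9 in Gata6-KO, below background in both. Tenm4, a teneurin, was higher (173 ± 56.0 in Gata6-KO against 63.6 ± 19.5 in Gata6-WT, log2 1.23 ± 0.31, adjusted p = 0.032), with the wild type level under the background bound. Its second tested probe set did not pass (0.99, adjusted p = 0.18). Tenm4 also missed the threshold without Gata6-KO replicate 1 (adjusted p = 0.075) or 3 (0.13), without Gata6-WT replicate 1 (0.073) or 2 (0.099), with its probe sets averaged (0.11), with no filter (0.076) and with no trend (0.052), among other settings.

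The neighbours of the called members held no call. Of the 3 protein-coding genes on each side of Adgre1, Adgre4, Adgre5, Adgrl4, Gpr35 and Gpr160, 21 were tested and 0 passed the limma threshold (4 at an unadjusted p under 0.05), where 13.1% of all genes tested were called. Their differences ran from -0.31 to 0.65. Vav1, next to Adgre1, and Gpr108, the gene beyond it, had 0.07 and 0.03. Among members, Adgrl2 lies next to Adgrl4 and Adgrl1 next to Adgre5, and neither passed.

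The 6 called members, Gpr65 and Gpr84 kept their direction in all 20 alternative settings. Changes of the filter, the fit without trend, the replicate block, the sex-linked term, treat and the adjusted p of 0.01 leave the estimate unchanged. In those settings the direction could not change, so only the others bear on it.

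**Figure D5:**
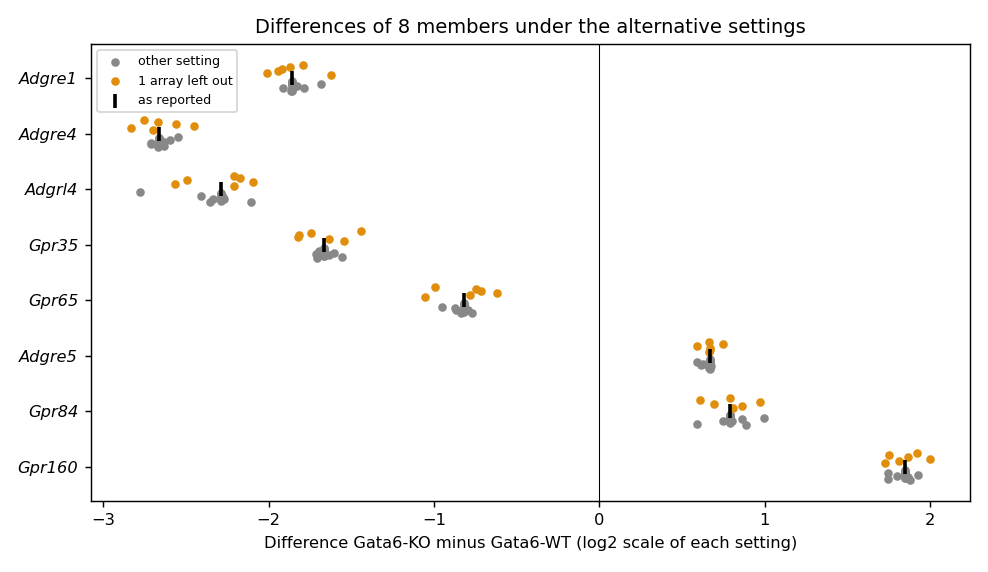
Difference Gata6-KO minus Gata6-WT (horizontal, log2 scale of each setting) for 8 members (rows) as reported (black bar), with 1 array left out (orange) and in the other settings (grey); the vertical offsets only separate points. No point of these members crosses 0, and Adgrl4 has the widest spread, from -2.78 to -2.09.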

How the data were processed

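The deposited values are linear intensities, with 45101 probe sets on each array; MAS5 and affy are named, per the submitters' processing notes, with no version. The mean without the top and bottom 2% of probe sets was 500.0 on each array, so these intensities had been scaled by the authors. MAS5 subtracts a mismatch-based stray signal, which leaves low signals noisy, and detection calls were not used here. The sources used here tie no genome build to the values, so no positions are given for probe sets.

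Symbols came from the array annotation. The 64 control probe sets were left out, signals were converted to log2(signal + 16), and the test covered the 27022 probe sets with a mean over the 40th percentile (5.99, or 47.5 as a signal). Genotypes were compared with limma 3.58.1 in R 4.3.3 (lmFit, eBayes with trend, two-sided, Benjamini-Hochberg), checked on simulated arrays. The number of arrays limits the precision. Figures used matplotlib 3.10.9.

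The members, lists and tests were chosen with earlier results of these data known. Full values are given for each called member above background and the 8 with the highest level; up to 4 called genes are named per list. Alternatives were pseudocounts of 1 and 64, no filter and the 60th percentile, quantile and median scaling, array weights, no trend, each array left out, a block on the replicate number, replicates 2 and 3 only, a sex-linked term, probe sets averaged per gene, treat against 1.5-fold and an adjusted p of 0.01. For the background, the 90th percentile, a signal of 200 and the level of the higher genotype were tried.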

Additional observations from a re-analysis of the deposited data

How the results depend on the processing

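The 4 lowered members (Adgre1, Adgre4, Adgrl4 and Gpr35) and Gpr160 were called in the same direction in each of 20 alternative settings. Adgre5 was called in all but treat against 1.5-fold, which left 1 higher member. The count of higher members ran from 2 to 3 and that of lower members from 4 to 5 with 1 array left out, and the count of higher signalling genes from 3 to 4 and of lower ones from 4 to 5. Signalling calls numbered 2 higher and 3 lower without the trend, 1 and 1 with treat, and 3 and 3 at an adjusted p of 0.01. Gpr108, near 0, changed sign with median scaling (-0.017), in replicates 2 and 3 only (-0.056) and with some single arrays left out, which gave -0.072 to 0.084; the cause was not tested. Members above background numbered 30 at the 90th percentile, 19 at a signal of 200 and 29 by the higher genotype. The replicate block gave 2 higher and 5 lower members, the added one being Gpr65 (adjusted p = 0.0086), and 4 higher and 5 lower signalling genes. Same-numbered arrays deviated together at r = 0.13, 0.07 and 0.07, and differently numbered ones had r from -0.07 to -0.01. Each array correlated best with its own number, and the arrays numbered 1 share low Xist. Not every same-numbered pair passed 0.1, so the main fit did not pair the arrays, and the block is given as an alternative. Low signal over background limits the 54 members under the bound.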
